A study of Mus musculus with 12 samples.

Results

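The genes described here encode enzymes that modify transfer RNA at sites other than the wobble uridine, together with close relatives of those enzymes. They were taken by symbol, as the numbered members of the Trmt, Pus, Nsun, Dus, Adat, Qtrt and Tyw families, leaving out Trmt112, a shared activator of several methyltransferases that also serves a wobble-uridine enzyme. The rule used no measured value and found 37 of the 24421 genes in the table. All 37 could be tested in total RNA, and 35 in ribosome-protected fragments (RPF) and in translational efficiency, because Adat3 and Nsun7 had too few RPF reads. The family names take in a few enzymes whose known substrate is ribosomal RNA, among them Nsun4 and Nsun5, so the set is wider than tRNA modification alone. The RefSeq annotation used here lists Trmt61b as a long noncoding RNA and the other members as protein-coding.

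The study profiled ribosome positions on mRNA in B16 cells, a mouse melanoma line, after depletion of Elp3. Cells grown in DMEM with serum were transduced with lentivirus carrying either a non-relevant shRNA (shControl) or 1 shRNA directed at Elp3 (shElp3, called sh309 in the labels). Each group had 3 replicates, lettered A to C, each with a total RNA library and an RPF library, 12 libraries in all. Libraries of a group that share a letter are taken here to come from the same culture, which their titles do not state. Both groups share the cell line, the medium and lentiviral transduction, and a single Elp3 shRNA was used, so its effect cannot be told apart from any other effect of that one construct.

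Transfer RNA carries more kinds of modified nucleoside than any other RNA, and each is placed by its own enzyme or enzyme pair. Modifications in and beside the anticodon tune codon reading and frame maintenance, while those in the body of the molecule support its folding and stability. Elp3 is the catalytic subunit of Elongator, which starts the modification of the wobble uridine; the enzymes described here act at other nucleosides, so their abundance bears on whether the rest of the modification machinery was altered when Elp3 was depleted.

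Total counts ran from 7914369 to 16527864 in total RNA and from 7619269 to 10998570 in RPF. Elp3 itself had 93.9, 72.1 and 70.0 CPM (reads scaled to the library's total) in control RNA of cultures A, B and C and 41.3, 35.3 and 35.4 in shElp3. By edgeR the log2 fold change was -1.08, with an SE of 0.22 and an adjusted p of 0.083, which became 0.00098 with the culture letter as a replicate block and 0.00029 by DESeq2. In RPF it fell by 0.93 on the log2 scale (SE 0.15, adjusted p = 0.025), a call that was lost on leaving out any 1 RPF library other than control culture A (adjusted p from 0.069 to 0.136). Control RNA of culture A stood apart: its Spearman correlation with B and C across genes was 0.899 and 0.891, against 0.993 between B and C. Melanocytic markers were present throughout, with a summed RNA level of 8939 to 11912 CPM in control and 5954 to 7474 CPM in shElp3 libraries. All 8 had log2 fold changes below 0, with a median of -0.72 in RNA, where Pmel fell, and -0.93 in RPF, where Pax3 and Pmel fell. With the replicate block Mitf, Pax3 and Pmel were called in RNA, in a fit that called 12.2% of all genes. In RPF the block called Mitf, Pax3, Pmel and Dct, in a fit that called 5.87% of all genes. The epithelial markers never exceeded a sum of 1.38 CPM in RNA. Leukocyte markers summed to 7.61 to 22.5 CPM in control RNA and 6.23 to 11.7 CPM in shElp3 RNA, and fibroblast markers to 24.2 to 58.9 CPM and 46.4 to 94.7 CPM. Of the 3 fibroblast markers tested all were above 0, and Col1a1 rose in RPF. In RNA none of them was called without the replicate block, and Col1a1 and Pdgfrb were called with it. The part of these shifts in the members' values was not tested. In bulk cultures, fewer cells expressing a gene and less RNA per cell cannot be told apart.

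No member passed the test in any of the comparisons. In total RNA 0 of 37 members were called at an adjusted p under 0.05 by edgeR's quasi-likelihood test, against a background of 1.14% of all genes tested. At an unadjusted p under 0.05 there was 1 member, Nsun7, or 2.70% of members against 12.4% of all genes. In RPF 0 of 35 were called, against 4.83% of all genes, and 3 had an unadjusted p under 0.05 (Pus7, Trmt1 and Dus3l), or 8.57% against 23.1%. In translational efficiency, tested as the difference between the RPF change and the RNA change, 0 of 35 were called and the background was 0%, with 0 members under an unadjusted p of 0.05. That test left culture out, and with culture as a block 0 of 35 members and 0% of all genes were called. DESeq2 also called 0 members in each comparison, against 5.31% of genes in RNA, 11.5% in RPF and 0% in translational efficiency. By that tool 2 members in RNA, 2 in RPF and 0 in translational efficiency had an unadjusted p under 0.05, against 14.2% of genes in RNA and 23.5% in RPF.

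The members centred a little above 0. Their median log2 fold change was 0.13 in RNA, with 23 above 0 and 14 below, beside -0.02 over all genes. In RPF the median was 0.18, with 24 above 0 and 11 below, beside -0.01 over all genes, and in translational efficiency it was 0.02 beside -0.03. Within letters A, B and C the RNA medians were 0.23, 0.15 and 0.17, and the RPF medians were 0.33, 0.08 and 0.02. The RPF median was thus highest in culture A, and the RNA median turned to -0.022 when shElp3 culture A was left out. The RPF median was 0.081 without control culture A, with 20 members above 0 and 17 below, and 0.096 without shElp3 culture A. These medians are descriptions and were not tested.

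The intervals give the precision behind these values. The 95% interval lay wholly within 1 log2 unit of 0, a 2-fold change, for 21 of 37 members in RNA and for 24 of 35 in RPF. The median distance from the value to either end of its interval was 0.71 in RNA, 0.48 in RPF and 0.82 in translational efficiency. Tyw1 had among the narrowest, from -0.34 to 0.24 in RPF, and Tyw5 the widest in RNA, from -1.53 to 1.36. For Tyw5 a change of more than 2-fold in either direction lay inside the interval.

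**Figure D1:**
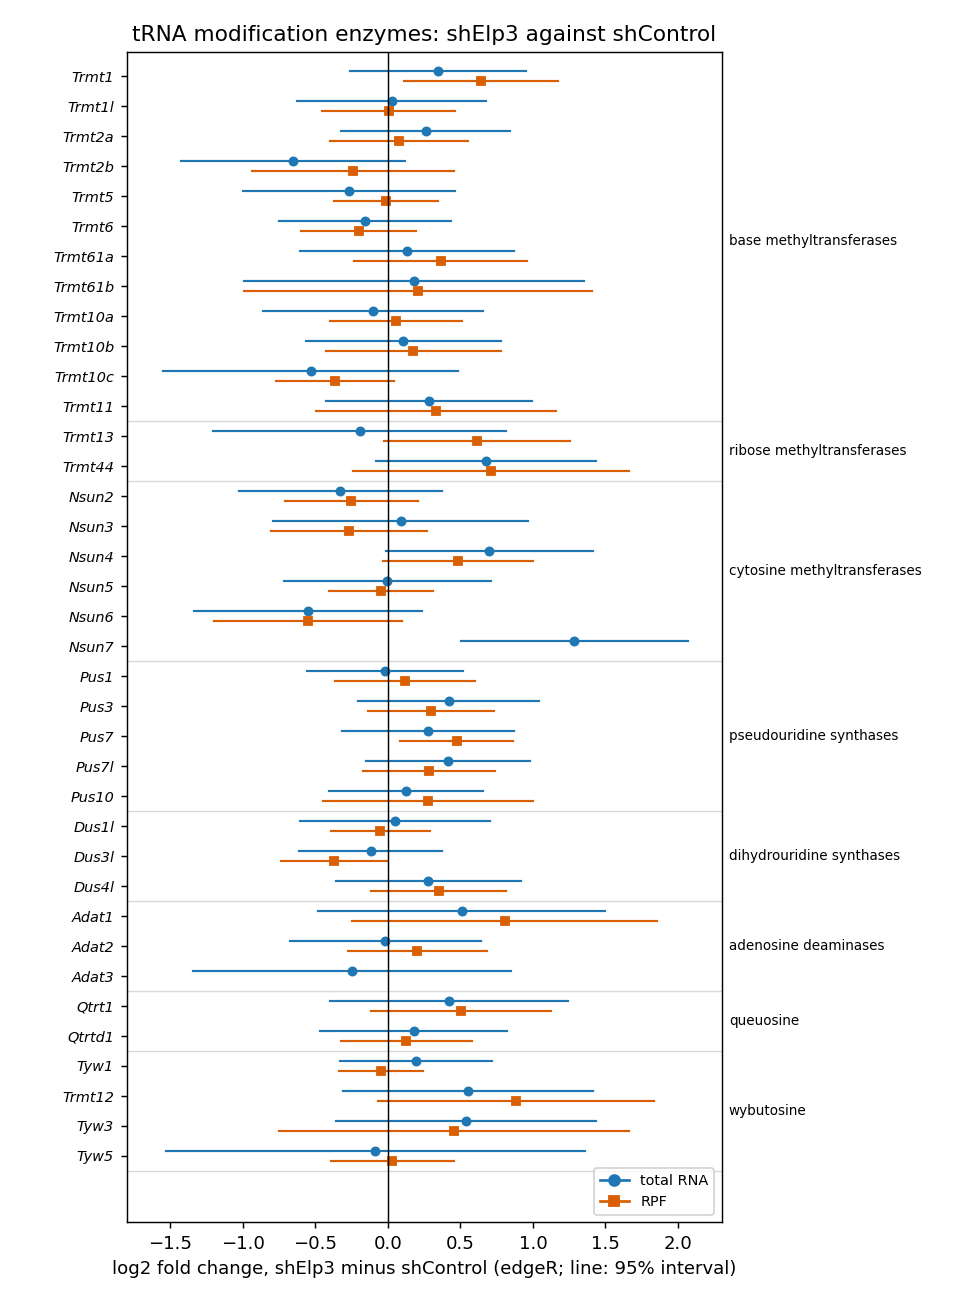
Log2 fold change between shElp3 and shControl for each member, with total RNA as circles and RPF as squares; lines are 95% intervals from edgeR with 3 libraries per group, and genes are grouped by role. The RNA interval of Nsun7 and the RPF intervals of Pus7, Trmt1 and Dus3l exclude 0 before adjustment; Nsun7 and Adat3 have no RPF value because they were not tested there.

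Nsun7, a member of the cytosine-5 RNA methyltransferase family best known in mice for a role in sperm motility, showed the largest difference of any member in RNA. It lies on chromosome 5 at 66259838 to 66299927 (GRCm38.p6). Control RNA held 0.969, 1.37 and 0.922 CPM and shElp3 RNA held 2.34, 2.50 and 3.16 CPM in cultures A, B and C. All 3 shElp3 libraries were therefore above all 3 control libraries, but on 10 to 15 reads against 21 to 40 per library. The log2 fold change was 1.29 (SE 0.34, 95% interval 0.50 to 2.07, edgeR adjusted p = 0.155).

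The call on Nsun7 depended on how the culture letters were treated. With the letter as a replicate block its log2 fold change was 1.29 and the adjusted p was 0.040, in a fit that called 12.2% of all genes. With letters B and C alone it was 1.31 with an adjusted p of 0.031, where 19.4% of all genes were called. In RPF the control libraries held 2 to 3 reads (0.420, 0.298 and 0.182 CPM) and the shElp3 libraries 10 to 28 (1.88, 1.03 and 3.0 CPM). The summed 8 and 53 reads gave a ratio of 6.92 at equal depth. Reads are not replicates, and this ratio says nothing of the variation between cultures. Nsun7 failed the read filter in RPF, so this ratio was not among the tested values; without that filter edgeR gave an adjusted p of 0.039, with 4.36% of genes called. The gene shares 1203 bases with Apbb2, whose log2 fold change was -0.35 in RNA (adjusted p = 0.855) and -0.27 in RPF (adjusted p = 0.278). The part of Apbb2 reads in the Nsun7 counts was not tested. Shared bases, here and below, are counted over whole gene spans on either strand, introns included, so they need not be exon sequence.

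The promoters of 3 members are shown because they contrast the gene with the largest RNA difference and 2 members that carry an E-box, the sequence CACGTG. MYC is among the factors that bind E-boxes, and Myc itself fell by 1.86 in RPF (SE 0.26, edgeR adjusted p = 0.020; 0.058 without control culture C and 0.10 to 0.12 without any 1 shElp3 library), while its RNA log2 fold change was -1.93 (adjusted p = 0.291, and 5.1e-05 with the replicate block). Each sequence, from RefSeq on GRCm38.p6, is 300 bases long, from 250 bases before to 50 after the annotated start. Capitals mark the first base after the start and each E-box. In Qtrt1 the start lies inside the second E-box.
Nsun7, chr5:66259648-66259947, plus strand: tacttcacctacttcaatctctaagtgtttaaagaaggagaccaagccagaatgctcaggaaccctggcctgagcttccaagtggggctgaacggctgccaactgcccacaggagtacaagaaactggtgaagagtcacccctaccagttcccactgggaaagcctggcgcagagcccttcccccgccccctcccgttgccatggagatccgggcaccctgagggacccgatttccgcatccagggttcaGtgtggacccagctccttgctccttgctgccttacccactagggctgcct
Pus7, chr5:23783662-23783961, minus strand: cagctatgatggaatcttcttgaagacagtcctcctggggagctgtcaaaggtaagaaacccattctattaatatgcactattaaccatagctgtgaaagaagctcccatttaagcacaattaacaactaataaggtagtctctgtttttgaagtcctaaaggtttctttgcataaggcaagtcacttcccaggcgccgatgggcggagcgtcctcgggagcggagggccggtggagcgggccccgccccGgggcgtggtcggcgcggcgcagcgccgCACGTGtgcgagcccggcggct
Qtrt1, chr9:21411587-21411886, plus strand: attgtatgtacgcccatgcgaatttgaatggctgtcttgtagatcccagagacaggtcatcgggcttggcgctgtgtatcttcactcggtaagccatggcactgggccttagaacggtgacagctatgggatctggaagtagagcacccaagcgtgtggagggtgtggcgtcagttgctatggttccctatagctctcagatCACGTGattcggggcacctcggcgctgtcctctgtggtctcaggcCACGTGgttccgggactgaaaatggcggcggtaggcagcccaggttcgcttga

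CACGTG reads the same on both strands, and it was found in 7 of the 32 members with a promoter in the table (Pus1, Pus3, Pus7, Qtrt1, Trmt10a, Trmt61a and Trmt61b). That is 21.9%, beside 8.09% of all 27025 genes and 8.91% of protein-coding genes with a promoter entry. Members and all genes alike were counted if any of their promoter entries held the motif. Pus7, Trmt10a and Trmt61b also have entries without it, and the Pus7 entry shown above is the one with it. The members' promoters also held more CpG dinucleotides, a median of 20.3 beside 13 for coding genes, and CACGTG itself contains a CpG. Log2 fold changes of these 7 members ran from -0.10 to 0.42 in RNA, with 5 above 0, and from 0.05 to 0.50 in RPF, with 7 above 0. Qtrt1 and Pus7, whose promoters are shown, had the highest RPF values of the 7 (0.50 and 0.47). Of the other 25 members with a promoter, 15 were above 0 in RNA, and 14 of 23 tested were above 0 in RPF. None of these genes passed the test, and a match to these letters is not evidence of binding.

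Of the pseudouridine synthases, which isomerise uridine within the RNA chain, none was called, and all 5 had RPF log2 fold changes above 0 (0.12 to 0.47). Pus7 modifies tRNAs and mRNAs at a short sequence motif. Its RPF level was 40.9, 29.4 and 35.4 CPM in control and 48.7, 54.3 and 43.7 CPM in shElp3, so the groups did not overlap. The log2 fold change was 0.47 (SE 0.17, 95% interval 0.09 to 0.86, edgeR adjusted p = 0.145). Leaving out RPF shControl culture A gave 0.58 with an adjusted p of 0.015, in a fit where 24.8% of genes were called, and letters B and C alone gave 0.60 with 0.022, where 21.7% of genes were called. Pus7 RNA overlapped between groups, at 41.1, 25.9 and 29.1 CPM against 44.6, 37.8 and 34.3 CPM, with a log2 fold change of 0.28 (adjusted p = 0.761).

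Pus7l, its paralog, did not overlap between groups in either fraction. RNA was 9.99, 8.16 and 8.94 CPM in control and 13.9, 10.8 and 11.4 CPM in shElp3 (log2 fold change 0.41, 95% interval -0.15 to 0.98, adjusted p = 0.579). In RPF the lowest shElp3 library (10.4 CPM) was barely above the highest control library (10.3 CPM). Pus3, which acts in the anticodon arm, had 0.42 in RNA and 0.30 in RPF. Pus1 and Pus10 had RPF values of 0.12 and 0.28, with 95% intervals that spanned 0. Pus3 shares 6581 bases with Hyls1 and Pus10 shares 7293 with Pex13, so where exons overlap their reads may be mixed with those of these genes.

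Among the base methyltransferases none of 12 was called in either fraction, and the medians were 0.07 in RNA and 0.07 in RPF. Trmt1 places dimethylguanosine at the hinge between the D arm and the anticodon arm. Its RPF level was 13.2, 21.1 and 23.7 CPM in control and 31.1, 26.9 and 32.9 CPM in shElp3, with no overlap. The log2 fold change was 0.64 (SE 0.23, 95% interval 0.11 to 1.17, edgeR adjusted p = 0.147), or 0.42 without control culture A, and the lowest value, in control culture A, lay below the other 2 controls. RNA ran from 49.7 to 76.3 CPM in control and from 65.6 to 89.4 CPM in shElp3, with a log2 fold change of 0.35 (adjusted p = 0.691). The gene shares 1539 bases with Nacc1, whose RPF log2 fold change was -0.26. Trmt1l, the paralog of Trmt1, had 0.03 in RNA and 0.01 in RPF, the latter with a 95% interval of -0.45 to 0.47.

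The T-loop adenosine methyltransferase is made of Trmt6 and the catalytic Trmt61a, and Trmt61b is its mitochondrial counterpart. Trmt6 had log2 fold changes of -0.16 in RNA and -0.20 in RPF. Trmt61a had 0.13 and 0.36, and Trmt61b 0.18 and 0.21, and none of the 3 genes passed the test. The difference between the complex partners was not tested. Trmt2a and Trmt2b methylate the T-loop uridine, in the cytosol and nucleus and in mitochondria respectively. Trmt2b RNA was 38.7, 21.3 and 19.9 CPM in control and 20.6, 13.4 and 16.6 CPM in shElp3, a log2 fold change of -0.65 (95% interval -1.43 to 0.12, adjusted p = 0.50). The groups overlapped only through the highest shElp3 library, and without control culture A the value was -0.28. Trmt2a had 0.26 in RNA.

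Trmt10c, the methyltransferase subunit of mitochondrial RNase P, had values below 0 in both fractions and was not called. Its RNA was 58.8, 23.0 and 24.1 CPM in control and 33.7, 18.5 and 20.9 CPM in shElp3, so that culture A was the highest library of each group. The log2 fold change was -0.53 in RNA (95% interval -1.55 to 0.48), and 0.05 without control culture A. In RPF it was -0.37 (95% interval -0.77 to 0.04, edgeR adjusted p = 0.260), with controls at 57.3, 41.4 and 39.4 CPM all above shElp3 at 35.3, 37.8 and 33.9 CPM, and it was -0.19 without control culture A. Trmt10a and Trmt10b had -0.10 and 0.11 in RNA and 0.05 and 0.18 in RPF. Trmt5, which methylates the guanosine beside the anticodon, had -0.27 in RNA and -0.01 in RPF (95% interval -0.37 to 0.34). Trmt11, the catalytic partner of Trmt112 on a D-arm guanosine, had 0.28 and 0.33.

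**Figure D2:**
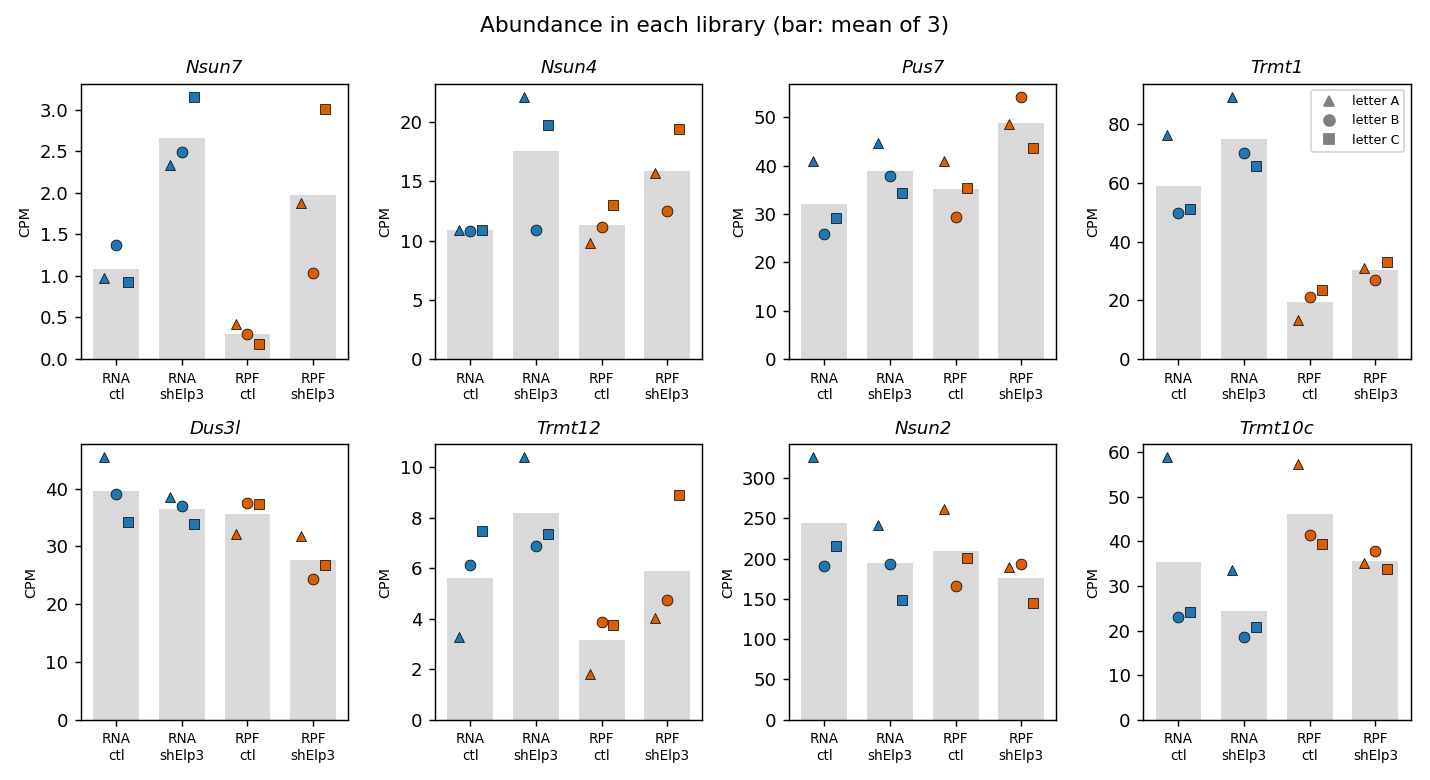
CPM of 8 members in each library; triangles, circles and squares are cultures A, B and C, bars are means of 3, and RNA and RPF of control (ctl) and shElp3 cells stand side by side. Nsun7 does not overlap between groups in either fraction, Nsun4 does not in RNA, and Pus7, Trmt1, Dus3l, Trmt12 and Trmt10c do not in RPF. Over all genes tested, 19.8% do not overlap in RNA and 30.8% in RPF. Culture A is the highest RNA library of Nsun2 and Trmt10c in both groups.

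Trmt13 and Trmt44 methylate ribose rather than a base. Trmt44 RNA was 4.92, 7.24 and 9.87 CPM in control and 10.9, 10.1 and 14.1 CPM in shElp3, without overlap, with a log2 fold change of 0.68 (95% interval -0.08 to 1.43, edgeR adjusted p = 0.468). Its RPF value was 0.71 (95% interval -0.24 to 1.66), on as few as 10 reads in control culture A, and 0.36 without that library. Trmt13 had the largest translational-efficiency value among the 35 tested members, 0.76 (SE 0.52, 95% interval -0.37 to 1.90, edgeR adjusted p = 0.9999). Its log2 fold changes were -0.19 in RNA and 0.61 in RPF. Without control culture A the translational-efficiency log2 fold change shrank to 0.23. Trmt13 shares 19650 bases with Sass6 and 7084 with Lrrc39, so where exons overlap its reads may be mixed with theirs.

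In the Nsun family, which methylates cytosine, 3 of 6 members were above 0 in RNA and 1 of 5 in RPF, and none was called. Nsun2 is the principal enzyme for cytosine methylation in the body of tRNA. It had 325, 191 and 215 CPM in control RNA and 241, 193 and 148 CPM in shElp3 RNA, a log2 fold change of -0.33 (95% interval -1.03 to 0.37), or -0.07 without control culture A. In RPF the value was -0.25 (95% interval -0.71 to 0.21), so the 2 fractions gave similar values and neither passed the test. Nsun6, which acts near the acceptor end, had -0.55 in both fractions. Its RPF was 22.1, 11.6 and 11.8 CPM in control and 10.5, 9.79 and 10.6 CPM in shElp3, so the groups did not overlap, and control culture A stood well above the other libraries. The RPF interval was -1.20 to 0.10, and without that library the value was -0.20 (adjusted p = 0.413).

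Nsun4 and Nsun5 act on mitochondrial and cytosolic ribosomal RNA. Nsun4 RNA was 10.9, 10.8 and 10.9 CPM in control and 22.1, 10.9 and 19.7 CPM in shElp3. Cultures A and C were thus near 20 CPM, but shElp3 culture B was level with the controls, and the log2 fold change was 0.70 (95% interval -0.01 to 1.41, edgeR adjusted p = 0.413). Nsun4 had 0.48 in RPF (adjusted p = 0.244). Nsun5 had -0.00 in RNA and -0.05 in RPF, with an RPF interval of -0.40 to 0.31. Nsun3, which methylates the wobble cytosine of mitochondrial methionine tRNA, had 0.09 and -0.27.

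The dihydrouridine synthases reduce uridines, mostly in the D loop, and Dus3l acts in the variable loop. Dus3l RPF was 32.1, 37.5 and 37.4 CPM in control and 31.9, 24.3 and 26.7 CPM in shElp3, so the lowest control library and the highest shElp3 library, both of culture A, were nearly level. The log2 fold change was -0.37 (SE 0.16, edgeR adjusted p = 0.214). Without RPF shControl culture A it was -0.45 with an edgeR adjusted p of 0.045, in a fit where 24.8% of genes were called. With letters B and C alone it was -0.55 with 0.022, where 21.7% of genes were called. In RNA it was -0.12 (95% interval -0.61 to 0.38). Dus1l had 0.05 and -0.05, and Dus4l 0.28 and 0.35, in RNA and RPF.

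Adat2 and Adat3 form the deaminase that makes inosine at the wobble adenosine, and Adat1 deaminates an adenosine beside the anticodon of alanine tRNA. Adat2 had -0.02 in RNA (95% interval -0.67 to 0.64) and 0.20 in RPF (95% interval -0.28 to 0.69). Adat3 had -0.25 in RNA (95% interval -1.34 to 0.85) on 7 to 26 reads per library, and 4773 of its bases are shared with Scamp4. Adat1 had 2.16, 5.41 and 5.62 CPM in control RNA and 4.56, 6.54 and 7.65 CPM in shElp3 RNA. Its log2 fold change was 0.51 in RNA and 0.81 in RPF (95% interval -0.25 to 1.86). The RPF value was 0.46 without control culture A and 1.39 without control culture B, and within letters A, B and C the RNA values were 1.06, 0.27 and 0.44.

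Queuosine replaces a wobble guanosine and is inserted by a complex of Qtrt1 and Qtrtd1 (now named Qtrt2). Qtrt1 RPF was 5.46, 6.86 and 8.38 CPM in control and 12.9, 8.34 and 8.37 CPM in shElp3, with a log2 fold change of 0.50 (95% interval -0.12 to 1.13, edgeR adjusted p = 0.306). The shElp3 libraries of cultures B and C lay at the top of the control range. Qtrtd1 had 0.18 in RNA and 0.13 in RPF.

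Wybutosine, a bulky base beside the anticodon of phenylalanine tRNA, is built after Trmt5 by Tyw1, Trmt12, Tyw3 and further enzymes, with Tyw5 adding a hydroxyl group. Tyw1 had 0.19 in RNA and -0.05 in RPF. Trmt12 RPF was 1.82, 3.88 and 3.74 CPM in control and 4.02, 4.74 and 8.90 CPM in shElp3, without overlap, and its log2 fold change of 0.88 was the largest RPF value among the 35 tested members (SE 0.41, 95% interval -0.07 to 1.84, edgeR adjusted p = 0.246). It was 0.46 without shElp3 culture C. Trmt12 had 0.55 in RNA. Tyw3 had 0.54 and 0.46 on as few as 7 reads per library. Tyw5 had -0.09 and 0.03.

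Members whose groups did not overlap are given beside the share of all genes; the difference in share was not tested. In RNA 4 of 37 members did not overlap (Nsun4, Nsun7, Pus7l and Trmt44, all higher in shElp3), or 10.8%, against 19.8% of all genes tested. In RPF 9 of 35 did not, or 25.7%, against 30.8%: Pus7, Pus7l, Trmt1, Trmt12, Trmt13 and Trmt44 were higher and Dus3l, Nsun6 and Trmt10c lower. In translational efficiency none of 35 was separated, against 6.58% of genes.

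Culture A differed from B and C for several members in the control cells. A gap of more than 1 log2 unit between A and the mean of B and C was seen in control RNA for 6 of 37 members, against 33.5% of genes. Tyw5 was 1.88 higher in A, at 26.5 CPM against 8.25 and 6.27, Trmt61b was 1.45 higher and Trmt10c 1.32 higher. Adat1 was lower in A by -1.34, and Nsun3 and Trmt12 each by -1.04. In shElp3 RNA only Tyw5 passed that gap, with 1.28. In control RPF 6 of 35 members passed it (Adat1, Pus10, Trmt11, Trmt12 and Trmt44 lower, Trmt61b higher), against 17.2% of genes, and in shElp3 RPF 0 of 35, against 2.1%. The part of this culture difference in the results above was not tested beyond the fits with and without culture A.

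**Figure D3:**
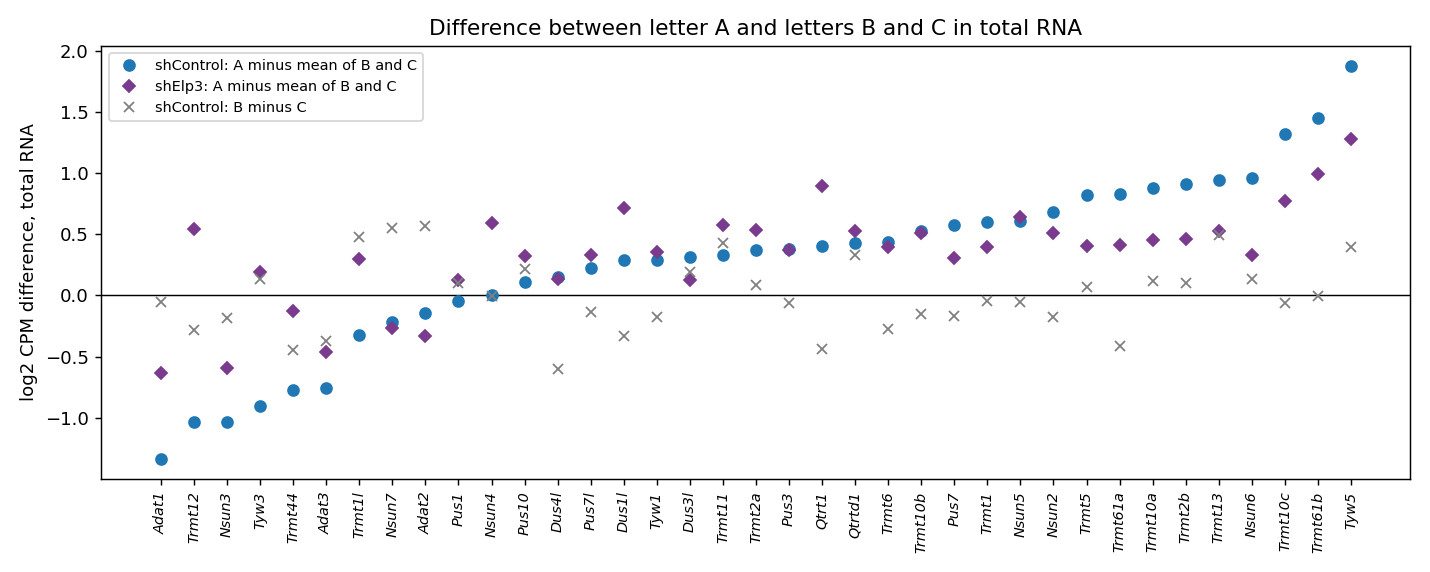
Difference in log2 CPM of total RNA between culture A and the mean of B and C, for control (circles) and shElp3 cells (diamonds), beside control B minus C (crosses), ordered by the control value. Tyw5, Trmt61b and Trmt10c are more than 1 unit higher in control A, and Adat1, Nsun3 and Trmt12 more than 1 unit lower, while B and C differ by less than 1 unit for every member.

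Footprints relative to RNA varied between members in control cells. This is log2 of RPF CPM over RNA CPM in the same culture; it is a description, and it depends on which part of each transcript the footprint counts cover. Over the 35 members with at least 1 CPM in both fractions the median was -0.04, beside -0.14 over 11099 genes with quartiles of -0.80 and 0.42. Of the members 20 were above the gene median and 15 below, and 6 each lay below the lower and above the upper quartile of genes.

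Trmt5 was highest, with 0.33, 1.04 and 1.17 in cultures A, B and C, followed by Trmt1l (0.70 in each culture) and Dus4l (0.68 on average). Trmt1 had the lowest mean, with -2.53, -1.24 and -1.11, beside Trmt61b (-1.62 ± 0.10, SD, n = 3), Trmt2b (-1.36 ± 0.44), Trmt44 (-1.20 ± 0.62) and Trmt61a (-1.03 ± 0.52). In cultures B and C Trmt61b was lower than Trmt1, at -1.59 and -1.73, so the lowest place of Trmt1 rests on culture A. Neighbours in this order overlapped in all 34 pairs, so only distant members were separated. Trmt61b shares 32507 bases with Spdya, and Trmt5 shares 5474 with Mnat1, so where exons overlap their reads may be mixed with those of these genes. Because Trmt61b is annotated as noncoding, its ratio cannot be read like that of a coding gene.

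Paralogs and partners were compared within the same cultures. The ratio of Trmt1l exceeded that of its paralog Trmt1 by 3.22, 1.93 and 1.81 log2 units in control cultures A, B and C, and by 2.0 ± 0.39 (SD, n = 3) in shElp3 cells. Trmt6 exceeded its catalytic partner Trmt61a by 0.80 ± 0.08 in control cells and by 0.62 ± 0.41 in shElp3 cells. Trmt2a exceeded its mitochondrial counterpart Trmt2b by 1.24 ± 0.40 and 0.76 ± 0.42. Trmt10c exceeded Trmt10a by 0.83 ± 0.04 and 0.82 ± 0.42. Pus7 and Pus7l differed by -0.00 ± 0.09 in control cells and 0.32 ± 0.22 in shElp3 cells, and Qtrt1 and Qtrtd1 by 0.14 ± 0.35 and 0.33 ± 0.51. These pairs were picked for their known relation, with values known, and carry no test.

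**Figure D4:**
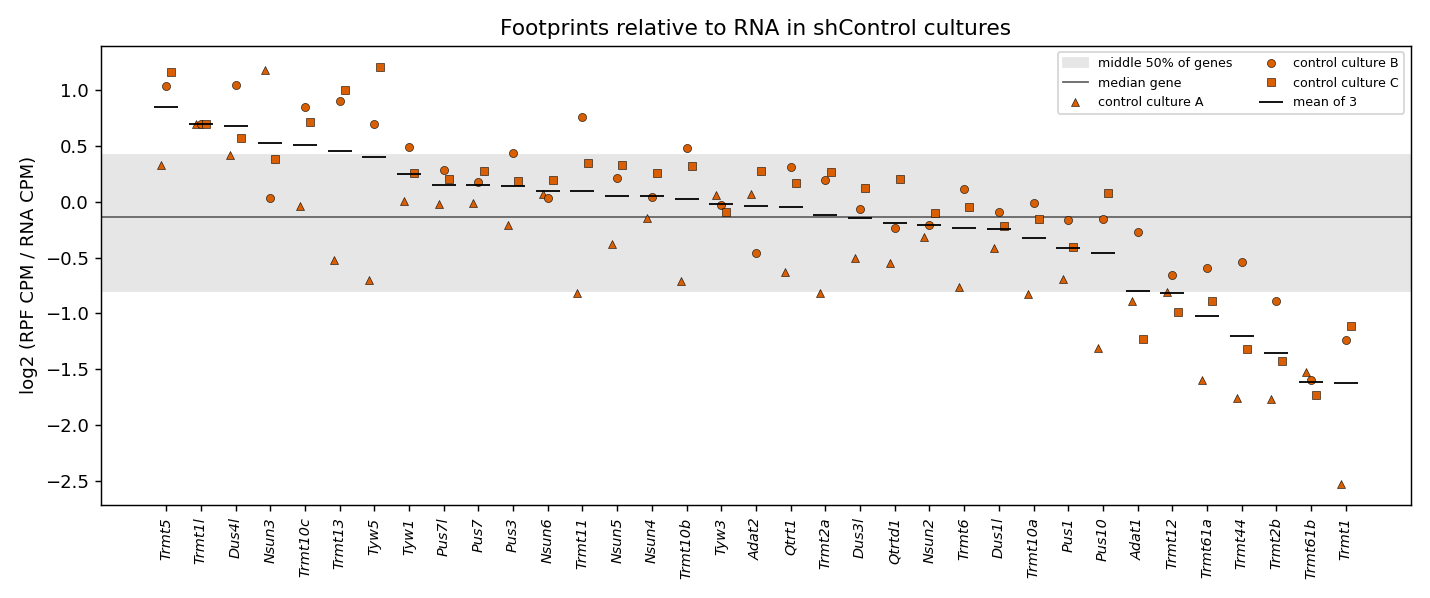
Log2 of RPF CPM over RNA CPM in the control cultures for 35 members, ordered by their mean (bars); points are cultures A (triangles), B (circles) and C (squares), the grey band runs from the lower to the upper quartile of 11099 genes and the line is their median. Trmt5 has the highest mean and Trmt1 the lowest, and culture A lies below B and C for many members.

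Other tRNA modification enzymes outside the naming rule were read beside the members, in a list of 42 of which 39 were in the table and tested. In RNA 0 of 39 were called by edgeR (1.14% of all genes), with 3 under an unadjusted p of 0.05 (12.4%) and 0 called by DESeq2 (5.31%). The replicate block called 2 of 39, Mettl1 and Tprkb, in a fit that called 12.2% of all genes. In RPF 1 of 39 rose by edgeR (4.83% of all genes), with 6 under an unadjusted p of 0.05 (23.1%), and DESeq2 called 3 (11.5%). None of these counts was above the share over all genes. The edgeR call was Mettl1, the catalytic subunit of the tRNA guanosine methyltransferase complex with Wdr4, at 12.6, 10.7 and 14.5 CPM in control RPF and 32.4, 31.5 and 19.5 CPM in shElp3 RPF. It rose by 1.14 (SE 0.24, edgeR adjusted p = 0.041), and its RNA value was 0.92 (adjusted p = 0.272, and 0.041 with the replicate block). The RPF call held without control culture A (adjusted p = 0.0076) and was lost on leaving out any other single RPF library (adjusted p from 0.080 to 0.185).

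The next smallest p-values in that list belonged to Thumpd3, a guanosine methyltransferase that works with Trmt112, Nat10, the RNA acetyltransferase, and Trub1, a T-loop pseudouridine synthase. Their RPF values were 0.51 (edgeR adjusted p = 0.069), 0.51 (adjusted p = 0.094) and 0.68 (adjusted p = 0.132). DESeq2 called Thumpd3 (adjusted p = 0.0099) and Nat10 (adjusted p = 0.036) but not Trub1 (adjusted p = 0.086). The list's medians were 0.11 in RNA and 0.08 in RPF, beside 0.13 and 0.18 for the members.

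Of 30 genes for tRNA transcription, processing and export, 29 were tested and 0 were called by edgeR in RNA, RPF or translational efficiency, with 1, 4 and 0 under an unadjusted p of 0.05. Over all genes 1.14%, 4.83% and 0% were called, and 12.4%, 23.1% and 0.55% were under that p. DESeq2 called 0, 1 and 0 of the 29, against 5.31%, 11.5% and 0% of all genes, the 1 being Polr3g in RPF (adjusted p = 0.036). The replicate block called 2 of the 29 in RNA, Polr3a and Polr3g, in a fit that called 12.2% of all genes. Polr3g and Polr3gl encode alternative forms of 1 subunit of RNA polymerase III and had RPF values of -0.94 (edgeR adjusted p = 0.073) and 0.58 (adjusted p = 0.102). Pop5 and Rpp40, subunits of the nuclear RNase P and MRP enzymes, had 0.48 (adjusted p = 0.110) and 0.44 (adjusted p = 0.204).

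Proliferation genes were read beside the members in the same fits. Of 13, all tested, 8 fell in RNA with a list median of -2.43, and 9 fell in RPF with a list median of -2.23. All 13 were below 0 with an unadjusted p under 0.05 in both fractions, and the replicate block called 13 in RNA and 12 in RPF. The lowest values among the members tested were -0.65 in RNA, for Trmt2b, and -0.55 in RPF, for Nsun6. Adat3, not tested in RPF, had 0.990 CPM there on average in control and 0.491 CPM in shElp3 cells. The difference between the lists was not tested. Leaving out any 1 RNA library other than control culture A left 0 genes of any kind called in RNA, and leaving out any 1 shElp3 RPF library left 0 in RPF.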

How the data were processed

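The authors deposited 1 table of raw counts of reads per gene symbol, with a column for each of the 12 libraries. Library preparation followed Illumina's TruSeq Ribo Profile method for mammalian cells, per the labels' protocols. The tools named in the submitters' processing notes are TopHat2 2.1.1, Bowtie, HTSeq and bcl2fastq, and the build is mm10. Not given in the sources used here are the annotation, the strand setting and whether footprint counts cover coding sequence alone. Reads of overlapping genes on opposite strands may therefore be mixed, and untranslated regions can lower a ratio of RPF to RNA.

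Groups came from the labels. Members, lists and tests were chosen with earlier results of these data known. Counts were tested with edgeR 4.0.16 (R 4.3.3; TMM scaling, filterByExpr with a minimum count of 10, quasi-likelihood F test, Benjamini-Hochberg adjustment over all genes tested, threshold 0.05) within RNA, within RPF, and as the interaction of fraction and shRNA over all libraries. CPM used TMM-scaled totals, and ratios of RPF to RNA a prior count of 0.5. The scripts were tested on simulated data. Any member could be named; from the 2 lists of other tRNA genes, those called or, where fewer than 4 were called, the 4 with the smallest p; the genes overlapping a member, and the paralog pairs, were chosen after values were seen. No libraries of a group agreed within counting noise (chi-square per degree of freedom at least 8.25).

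Deviations from group means were correlated between control and shElp3 libraries. Within letters A, B and C the values were 0.80, 0.41 and 0.57 in RNA and 0.74, 0.44 and 0.47 in translational efficiency. Control B with shElp3 C gave 0.67 and 0.49, and control C with shElp3 B gave 0.57 and 0.56. From the data only, culture A thus stood apart from B and C, and pairing by letter was not shown for B and C. In RPF the same-letter values were 0.31, -0.11 and 0.21. The reported tests carry no block. The blocked result is given where it changes a call on a member, on Elp3 or Myc, or on a gene of the lists. The labels do not say whether cultures were transduced separately; the p-values reflect only how much these cultures varied, which may be technical. The alternatives tried were other size factors, other read filters, DESeq2 1.42.0, a replicate block, letters B and C alone, and leaving out each library or culture. Gene positions and promoters came from RefSeq tables of GRCm38.p6, in which all 37 members and 32 promoters were matched (Adat1, Nsun5, Trmt1, Trmt12 and Trmt6 have no promoter entry). CPM levels were not compared between genes, since no lengths were at hand; ratios of RPF to RNA were.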

Additional observations from a re-analysis of the deposited data

How the results depend on the processing

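Under the alternatives run, no member changed sign while called. In RNA the members called rose from 0 to 1 (Nsun7) with the replicate block by letter (12.2% of all genes called) and with letters B and C only (19.4%); in RPF they rose from 0 to 1 without a count filter (Nsun7; 4.36% of genes) and to 3 with letters B and C only (Dus3l, Nsun7 and Pus7; 21.7%). Leaving out single libraries gave 0 to 3 in RPF, the 3 being the same genes, without control culture A (24.8%). In both fits that called 3, Nsun7 passed the read filter only through its shElp3 libraries (10 to 28 reads, against 2 to 3 in control). Its RPF calls there therefore do not stand as support for a difference. The replicate block changed no other member's call. The RNA median was 0.21 with upper-quartile size factors, which also put 26 members above 0 in RNA and 28 in RPF, and ran from -0.022 to 0.28 on leaving out single libraries. The RPF median ran from 0.081 to 0.23 on leaving out single libraries, and was 0.26 with upper-quartile size factors. Those size factors also moved the median over all genes, to 0.05 in RNA and 0.07 in RPF. The translational-efficiency median ran from -0.17 without control culture A to 0.19 without shElp3 culture A. The cause of these shifts was not tested. One sign held in every alternative for 22 of 37 members in RNA, 21 of 35 in RPF and 7 of 35 in translational efficiency, so the direction of most translational-efficiency values is not settled. Nsun7, Adat3, Tyw3 and Trmt61b rest on few reads, which limits what can be said of them.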
